A study of Mus musculus with 20 samples.

Results

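The genes described here are 48 members of the unfolded protein response and the amino acid stress response, chosen by name, of which 47 had a row among the 14456 genes of the deposited table. Chac1, a glutathione-degrading enzyme of the amino acid stress response, had none. The members were kept in their known branches. The endoplasmic reticulum (ER) branch held 24 genes: 16 ER chaperones and folding enzymes, 3 ER stress sensors and factors, and 5 genes of ER-associated degradation. The ATF4 branch named 24 genes, 23 of them measured: the eIF2alpha kinases Eif2ak3 and Eif2ak4, transcription factors, feedback genes, enzymes of amino acid and one-carbon synthesis, amino acid transporter subunits and cytosolic tRNA synthetases.

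Bone marrow-derived macrophages (BMDM) of the mouse were profiled by total RNA sequencing in 20 libraries. These are primary cells differentiated for 6 days with the macrophage growth factor M-CSF from marrow of male C57BL/6 mice of 8 weeks, or of 8 to 12 weeks, as different sections of the study's methods give it, with 4 libraries in each of 5 groups. In the glucose experiment, the high glucose group spent 24 h at 25 mM glucose. The normal glucose group spent the same time at 5.5 mM glucose with 19.5 mM mannitol, a sugar alcohol that balances the osmotic load. In the exosome experiment, naive BMDM were incubated with 2000000000 particles per ml of exosomes, small vesicles purified from the medium of separate BMDM cultures grown in high glucose (HG-exo) or in normal glucose (NG-exo), or with saline (PBS), also for 24 h. The question put to the members was whether high glucose, or vesicles released under it, moved either stress branch. The study describes the exosome libraries as made with separate exosome preparations. Whether the recipient BMDM, those given PBS among them, came from separate animals or cultures is not given in the sources used here. The p-values of the exosome comparisons measure the spread between those libraries. For the glucose libraries the labels give only numbers, and whether those came from separate animals or cultures is not given in the sources used here, so that p-values there measure the spread between these libraries, which may be technical.

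Unfolded protein in the ER lumen is sensed by IRE1 (encoded by Ern1), ATF6 (Atf6) and PERK (Eif2ak3). IRE1 splices the Xbp1 transcript into the form that encodes an active factor, and XBP1 and ATF6 together raise chaperones such as BiP (Hspa5) and the degradation machinery. PERK, and the amino acid sensor GCN2 (Eif2ak4), phosphorylate eIF2alpha, which slows general translation while favouring translation of the factor ATF4, whose targets make, import and charge amino acids. Macrophages make many secreted and surface proteins, which are folded in the ER.

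Reads summed to between 34016445 and 56310712 per library (median 43311931). PBS had the lowest group median, 36622308, against 47923964 in NG-exo and 44199837 in HG-exo. The glucose groups had medians of 41060624 (normal) and 41896666 (high). The part of depth in the comparisons with PBS was not tested. All 10 macrophage markers examined had a row, led by Lyz2 and Csf1r, while none of the 5 dendritic cell, 7 lymphocyte or 4 erythroid markers did. Of 8 neutrophil markers, 5 had a row, and they summed to at most 378 normalized counts in any library, with Ly6g, Elane and Camp absent. Of 4 plasma cell markers Sdc1 alone had a row, and 3 of 5 fibroblast markers had a row and summed to at most 344. No marker outside the macrophage list passed the test in any comparison. The summed level of the macrophage markers, most of it Lyz2, differed between groups. It was 652680.2 to 729331 in normal glucose and 830329.9 to 901912 in high glucose, and it was 816882 to 863478 in PBS, 742287 to 796896 in NG-exo and 758593 to 782427 in HG-exo. Single markers went both ways, with Mrc1, Mertk and Cd68 called lower under high glucose.

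Promoters were read from RefSeq (GRCm38.p6) as 250 bases before to 50 bases after each gene's start, and 41 of the 48 members had an entry. They are shown because known binding elements of the ER stress factors and of ATF4 lie in this window in part of the members. The members were chosen by name as genes of these responses. Their shares of matches are therefore a description that is not independent of that choice. The ER stress element ERSE (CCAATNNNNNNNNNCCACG), searched on both strands, was present in 8 of 20 ER branch promoters (Calr, Canx, Creld2, Dnajc3, Hsp90b1, Hspa5, Pdia6 and Syvn1), in 0 of 21 ATF4 branch promoters and in 0.119% of all 32851 promoters. The related ERSE-II (ATTGGNCCACG) was present in Dnajb11 and Herpud1 of the ER branch, in no ATF4 branch promoter and in 0.0365% of all. The core of the unfolded protein response element (TGACGTG) was found in Hspa5 alone among the members, against 2.01% of all promoters. The ATF4 response element core (TGATGNAA) was found in 5 of 21 ATF4 branch promoters (Aars, Asns, Chac1, Gars and Trib3), in Herpud1 of the ER branch and in 3.97% of all. No match overlapped a match to another motif. A match describes letters within the window and does not show binding.

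The matches to both ER stress elements are printed with 10 bases on either side, in the direction of the element, with its fixed letters in capitals. Hsp90b1 carried a pair of matches.
Hspa5, chr2:34772015-34772053, + strand: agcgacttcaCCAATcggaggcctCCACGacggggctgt
Hsp90b1, chr10:86705628-86705666, - strand: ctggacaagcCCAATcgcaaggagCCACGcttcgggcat
Hsp90b1, chr10:86705523-86705561, + strand: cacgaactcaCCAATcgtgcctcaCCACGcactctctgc
Calr, chr8:84847065-84847103, + strand: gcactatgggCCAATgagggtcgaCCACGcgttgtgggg
Canx, chr11:50325790-50325828, - strand: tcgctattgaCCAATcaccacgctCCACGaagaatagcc
Pdia6, chr12:17266481-17266519, + strand: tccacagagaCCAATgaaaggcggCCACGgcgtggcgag
Dnajc3, chr14:118937817-118937855, + strand: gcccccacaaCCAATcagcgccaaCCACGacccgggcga
Creld2, chr15:88819510-88819548, - strand: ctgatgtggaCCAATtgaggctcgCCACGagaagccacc
Syvn1, chr19:6046522-6046560, + strand: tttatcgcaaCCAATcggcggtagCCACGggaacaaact
Dnajb11, chr16:22857842-22857872, + strand: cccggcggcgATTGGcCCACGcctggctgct
Herpud1, chr8:94386367-94386397, + strand: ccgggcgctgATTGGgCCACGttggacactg

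The element lay 65 bases before the start of Hspa5, 44 bases before that of Syvn1 and 52 bases before that of Herpud1, and between 98 and 212 bases before the start in the other ERSE promoters. In Dnajb11 it lay just after the start. For the 2 members with the largest fall and the largest rise among the calls described next, whole promoters are given with matched letters in capitals: Herpud1, which holds an ERSE-II and an ATF4 core, and Xbp1, which holds no match to the 4 motifs in this window. The Asns promoter is added as the example from the ATF4 branch.
Herpud1, chr8:94386179-94386478, + strand: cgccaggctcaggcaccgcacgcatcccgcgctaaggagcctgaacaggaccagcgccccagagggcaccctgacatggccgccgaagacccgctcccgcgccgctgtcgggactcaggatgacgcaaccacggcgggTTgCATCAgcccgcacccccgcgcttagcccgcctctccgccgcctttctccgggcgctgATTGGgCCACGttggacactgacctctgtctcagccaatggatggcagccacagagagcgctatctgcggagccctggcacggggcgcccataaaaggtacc
Xbp1, chr11:5520391-5520690, + strand: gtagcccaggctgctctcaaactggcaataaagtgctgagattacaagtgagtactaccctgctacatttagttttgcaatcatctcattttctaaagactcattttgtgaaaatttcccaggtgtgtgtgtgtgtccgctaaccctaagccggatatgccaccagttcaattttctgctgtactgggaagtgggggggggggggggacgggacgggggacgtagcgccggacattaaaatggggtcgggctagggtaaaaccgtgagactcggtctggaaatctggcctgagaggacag
Asns, chr6:7693160-7693459, - strand: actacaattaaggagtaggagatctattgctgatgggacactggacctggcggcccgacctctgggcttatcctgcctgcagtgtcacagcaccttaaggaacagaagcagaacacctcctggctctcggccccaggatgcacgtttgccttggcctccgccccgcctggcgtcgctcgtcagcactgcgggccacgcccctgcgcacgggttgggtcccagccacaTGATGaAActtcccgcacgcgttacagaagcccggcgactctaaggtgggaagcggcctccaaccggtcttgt

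Levels between genes were compared as normalized counts (reads divided by the library's size factor) per kb of exon, averaged over the 20 libraries. The lectin chaperone Calr led the members at 11407 per kb, followed by Hsp90b1, the ER form of HSP90, at 8071, Hspa5 at 6489, the disulfide isomerase Pdia3 at 5922 and the lectin chaperone Canx at 4971. The ER branch ran from 368 per kb (Syvn1, the ubiquitin ligase of ER-associated degradation) to that of Calr, with a median of 1089. The ATF4 branch ran from 8.63 (Slc7a5, the light chain of a leucine transporter) to 1407 (Nars, asparaginyl-tRNA synthetase), with a median of 276. The 8 lowest members were all of the ATF4 branch: the asparagine synthetase Asns, the serine and one-carbon enzymes Mthfd2, Psph, Psat1 and Phgdh, the feedback genes Trib3 and Ddit4, and Slc7a5. The smallest read count of a member in a library was 10, for Slc7a5. The plot of levels per kb shows that differences between genes were far larger than those between groups.

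**Figure D1:**
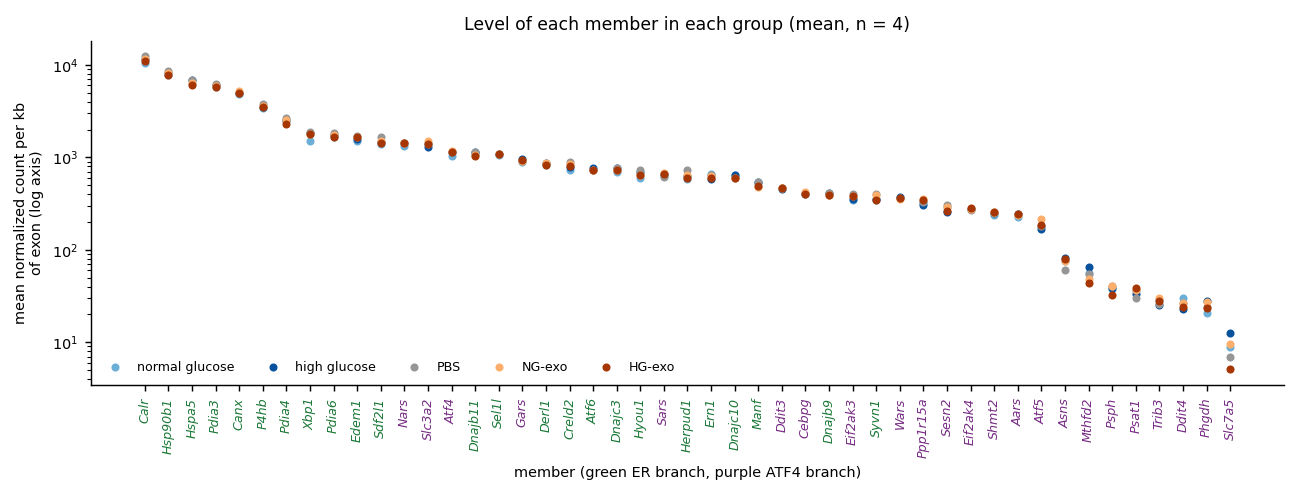
Mean normalized count per kb of exon (vertical, log axis) of the 47 measured members (horizontal), 1 point for each group of 4 libraries. Gene names are green for the ER branch and purple for the ATF4 branch. Calr stands highest at 11407 per kb over all libraries, and the 8 lowest members belong to the ATF4 branch.

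High glucose was first compared with normal glucose. Fold changes are on the scale of log2(normalized count + 1). The call rule here was limma's adjusted p under 0.05, with the adjustment over all 14425 genes tested. Of 47 members, 7 were called, 14.9% against 13.3% of all genes tested, so the share was near the background. In the ER branch 4 members rose (Xbp1, Hyou1, Calr and Hspa5) and Ern1 fell. In the ATF4 branch Atf4 rose and the transporter heavy chain Slc3a2 fell. Under quantile normalization 4 of the 7 remained (Xbp1, Hyou1, Ern1 and Slc3a2), so that 2 were higher and 2 lower, and without the mean-variance trend Xbp1 alone was called. At an unadjusted p under 0.05 there were 12 members (25.5%), against 25.4% of all genes. Over all genes 7.74% were called higher and 5.53% lower, or 1116 and 798 genes, a split that became 789 and 872 under quantile normalization. The percent changes of the called members ran from 8.47% to 22.8% for those that rose and were -9.10% and -12.9% for those that fell.

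Xbp1 (chr11:5520659-5525893) encodes the factor downstream of IRE1. In normal glucose its normalized counts were 5075, 4738, 4824 and 4998. The high glucose libraries had 5800.3, 6209, 6183 and 5919. Every high glucose library lay above every normal glucose library, with a fold change of 0.30 ± 0.04 on the log2 scale (SE, n = 4 and 4; adjusted p = 1.49e-06, limma). These are counts over the whole gene, so the spliced and unspliced forms were not told apart. In bulk libraries of this kind, fewer cells of a type and less RNA per cell cannot be told apart either.

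Ern1 (chr11:106394650-106487852), which encodes IRE1 itself, moved the other way. Normal glucose libraries had 5732, 5629.7, 5161 and 5235 normalized counts, against 4955, 4669, 4559 and 4765 under high glucose. The groups did not overlap, with a fold change of -0.20 ± 0.04 on the log2 scale (SE; adjusted p = 0.00129, limma). Atf6, the remaining gene of the ER stress sensors and factors, was at 6803, 6682, 6756 and 7005 in normal glucose, against 6637, 7269, 7221 and 7231 under high glucose. The groups overlapped, and its log2 fold change of 0.06 ± 0.04 was not called (adjusted p = 0.386, limma).

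Hyou1, a large HSP70-type chaperone and exchange factor of the lumen, was at 4441, 4243, 4396 and 4093 in normal glucose, against 4943, 5096, 5132 and 4727 under high glucose, with no overlap (log2 fold change 0.21 ± 0.04, adjusted p = 0.000527, limma). Calr was at 31196, 26682, 30927 and 30788 in normal glucose, against 35220.5, 33340.0, 32684 and 32264 under high glucose. These groups did not overlap either (0.16 ± 0.04, adjusted p = 0.00409). Hspa5 (chr2:34771970-34777547), the BiP gene, was at 25696, 25579, 26709 and 27841 in normal glucose, against 29676, 28934, 28387 and 27756 under high glucose. The highest normal glucose library exceeded the lowest high glucose library, with 0.12 ± 0.03 on the log2 scale (adjusted p = 0.0164, limma, up to 0.0714 with a library left out, the call being lost for 2 of 8). The other 13 chaperones and folding enzymes were not called. Their log2 fold changes lay between -0.01 (Dnajc10) and 0.13 (Dnajc3, an HSP40-type cochaperone, adjusted p = 0.0524).

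Counted over the branch, 22 of 24 ER members had a positive log2 fold change, with a median of 0.07 against -0.0031 over all genes tested. None of the 5 degradation genes was called by limma. Their log2 fold changes were between 0.03 and 0.09, and 0 of them had an unadjusted p under 0.05. Groups did not overlap for 4 ER members above (Xbp1, Hyou1, Calr and Dnajc3) and 1 below (Ern1), beside 9.18% and 7.11% of all genes. Of the 10 ER members with an ERSE or ERSE-II match, Hspa5 and Calr were called, and of the 10 with a promoter and no match, Xbp1 and Ern1 were. Hyou1, also called, had no promoter entry and is in neither set, and 13.3% of all genes were called. The macrophage markers changed in the same comparison, 4 of 10 called higher (Lyz2, Csf1r, Cd14 and Adgre1) and 3 lower (Mrc1, Mertk and Cd68), and their part in the result was not tested.

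**Figure D2:**
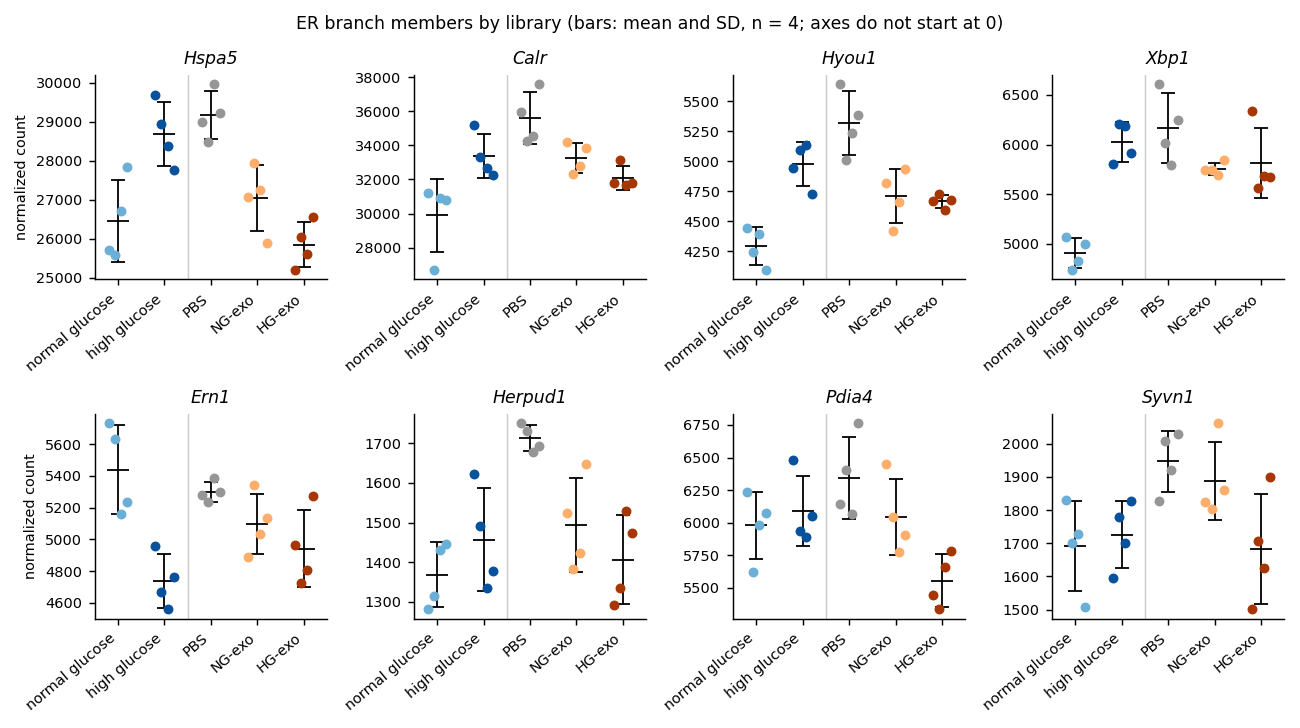
Normalized counts of 8 ER branch members in each library (points), with the mean and SD of the 4 libraries of a group (bars). A vertical line parts the glucose experiment from the exosome experiment, and vertical axes do not start at 0. Xbp1, Hyou1 and Calr have no overlap between normal and high glucose, and the HG-exo libraries of Hspa5, Hyou1, Herpud1 and Pdia4 all lie below the PBS libraries.

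In the ATF4 branch 2 of 23 members were called, in opposite directions. Atf4 (chr15:80255184-80257541) was at 2478, 2453, 2403 and 2535 in normal glucose, against 2718, 2675, 2734 and 2749 under high glucose. The groups did not overlap, with 0.14 ± 0.05 on the log2 scale (adjusted p = 0.0430, limma), a call that was lost when any of 7 of the 8 libraries was left out (adjusted p from 0.0422 to 0.118). Transcript level is only part of ATF4 control, which acts largely on translation and was not measured. Slc3a2 (chr19:8706882-8723369) was at 4938, 4848, 5392 and 4754 in normal glucose, against 4661, 4511, 4581 and 4351 under high glucose. Here the groups did not overlap, at -0.14 ± 0.04 on the log2 scale (adjusted p = 0.0314, limma), and the call was lost without 4 of the 8 libraries in turn (adjusted p from 0.0204 to 0.179).

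Ddit3, the CHOP gene, marks severe ER stress. It was at 925, 848, 715 and 731 in normal glucose, against 891, 749, 713 and 786 under high glucose. The groups overlapped widely (log2 fold change -0.03, 95% interval -0.21 to 0.14, adjusted p = 0.859, limma). Atf5, a related factor, was at 394, 339, 351 and 362 against 338, 358, 316 and 329.7, with overlap (-0.11 ± 0.11, adjusted p = 0.597). The PERK gene Eif2ak3 was at 1993, 2129, 2108 and 2110.2 against 2198, 2146, 1989 and 2158, and the GCN2 gene Eif2ak4 at 2099.9, 2109, 2170.4 and 1962 against 1962, 2127, 2051 and 2144. Neither kinase was called, with log2 fold changes of 0.03 ± 0.05 and -0.01 ± 0.05. Ddit3 overlaps Mars on the opposite strand; counting was by strand.

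The 4 measured feedback and effector genes all had negative log2 fold changes, from -0.46 (Ddit4, an inhibitor of mTORC1) to -0.07 (Ppp1r15a, the eIF2alpha phosphatase subunit GADD34), and none was called by limma. Among them the stress-inducible Sesn2 had an unadjusted p under 0.05 (1012 ± 25.6 against 882 ± 90.2, SD, log2 fold change -0.20 ± 0.08, adjusted p = 0.0687). The 6 synthesis enzymes ran from -0.10 (Psat1) to 0.46 (Phgdh, at 51.0 ± 9.01 and 69.9 ± 8.83 counts, adjusted p = 0.281). The 5 tRNA synthetases were all positive, from 0.05 (Wars) to 0.12 (Aars), and none was called, with 1 at an unadjusted p under 0.05. Over the branch 13 of 23 were positive, with a median log2 fold change of 0.05. Its low genes had wide errors: the median half-width of the 95% interval was 0.15 on the log2 scale in the ATF4 branch and 0.09 in the ER branch.

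**Figure D3:**
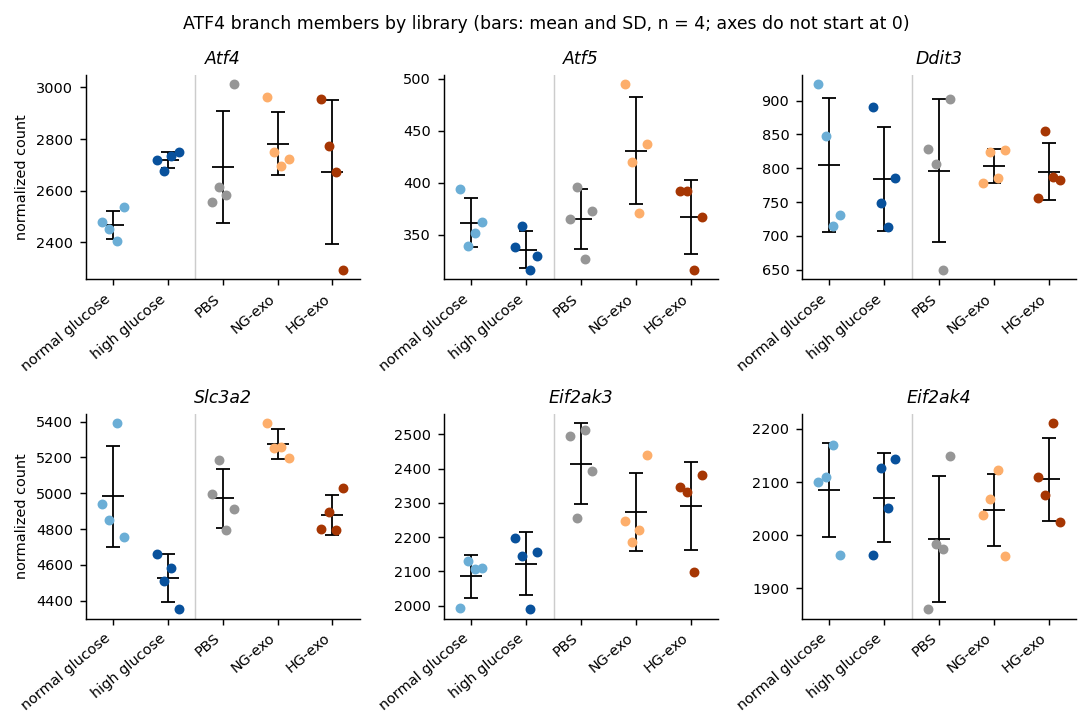
Normalized counts of 6 ATF4 branch members in each library (points), with the mean and SD of the 4 libraries of a group (bars), the glucose experiment to the left of the vertical line; vertical axes do not start at 0. Atf4 and Slc3a2 show no overlap between normal and high glucose, in opposite directions, and Ddit3, Eif2ak3 and Eif2ak4 overlap.

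The fixed lists of other pathway genes moved in both directions under high glucose. Their counts of calls stand beside 13.3% of all genes called in this comparison, 7.74% higher and 5.53% lower. Of 31 further ATF4 targets and amino acid stress genes, 6 rose and 3 fell. They included the amino acid transporter Slc38a2 (3357 to 5248 normalized counts, log2 fold change 0.65 ± 0.06, adjusted p = 6.76e-11, limma), Rbpj (0.46 ± 0.04) and the autophagy receptor Sqstm1 (0.33 ± 0.03), which rose, and Gadd45a (-0.41 ± 0.09), Got1 (-0.23 ± 0.06) and Stbd1 (-0.67 ± 0.23), which fell. Sqstm1 and Slc38a2 are also controlled by other stress pathways. Of 40 further ER folding and translocation genes, 4 rose, among them the oligosaccharyltransferase subunit Rpn1 (0.23 ± 0.04), the coat subunit Sec23b (0.24 ± 0.06) and the folding sensor Uggt1 (0.13 ± 0.04), and 2 fell, the retrieval receptor Kdelr1 (-0.26 ± 0.06) and Fkbp11 (32.4 to 10.7 counts). Of 27 further ER degradation and stress regulators, Selenos rose (0.20 ± 0.06) and Creb3l2, Creb3l1 and Bbc3 fell. Of 12 further translation control genes, 4 rose, including the kinase Eif2ak2 (PKR, 0.26 ± 0.05), Abcf1 and Eif2b5, and the GCN2 inhibitor Impact fell (-0.21 ± 0.06). Of 18 further tRNA synthetases, Eprs and Mars rose.

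In the exosome experiment HG-exo was compared with NG-exo, with PBS, and with both combined, and NG-exo with PBS. These comparisons share libraries and are not independent. Calls there required limma's adjusted p to be under 0.05, over 14413 genes tested, and the fold change to reach 0.15 on the log2 scale in either direction. Against NG-exo, no member was called by limma, by edgeR or by DESeq2, beside 0.0139% of all genes by limma. At an unadjusted p under 0.05 there were 6 members, all lower in HG-exo: Hspa5, Hsp90b1, Pdia4, Syvn1, Slc3a2 and Slc7a5. That is 12.8% of the members, against 6.54% of all genes at the same threshold. The intervals limit what could have been missed. For Hspa5 the log2 fold change was -0.06 (95% interval -0.13 to -0.0022), for Xbp1 0.01 (-0.08 to 0.10), for Atf4 -0.06 (-0.19 to 0.06) and for Ddit3 -0.02 (-0.19 to 0.16). Slc7a5 had the most negative value, -0.93 (-1.74 to -0.11, adjusted p = 0.698), at 35.2 ± 6.50 and 18.8 ± 6.88 counts (SD, n = 4 each). Both branches had a median log2 fold change of -0.05, against -0.0011 over all genes.

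Against PBS and NG-exo combined, 0 members were called by limma and by edgeR, and Pdia4 alone by DESeq2 (log2 fold change -0.16, adjusted p = 0.0305), beside 0.201% of all genes by limma. At an unadjusted p under 0.05 there were 14 members, all lower in HG-exo, 11 of the ER branch and 3 of the ATF4 branch, or 29.8% against 10.5% of all genes at the same threshold. The ER branch median was -0.08, with 22 of 24 members negative, and that of the ATF4 branch was -0.01, with 13 of 23 negative. The ATF4 median ran from -0.047 (without PBS replicate 3) to 0.0010 (without HG-exo replicate 2) with a library left out. Pdia4 was also called by limma when NG-exo replicate 3 was left out (-0.17, adjusted p = 0.0231).

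Against PBS, the HG-exo libraries had lower levels of part of the ER branch. By limma, 6 of 47 members were called, 12.8% against 4.84% of all genes tested, and all 6 were ER members that were lower in HG-exo, 3.08% of all genes being called lower. The median SE was 0.04 on the log2 scale in the ER branch, 0.08 in the ATF4 branch and 0.10 over all genes tested. ER members could thus be called, or have groups without overlap, at smaller changes than most genes of that background. Of 23 ATF4 members none was called by limma, edgeR or DESeq2, with 2 at an unadjusted p under 0.05 (8.70%, against 16.9% of all genes), and Sesn2 was called by limma when PBS replicate 3 was left out (-0.29, adjusted p = 0.0392). The 6 were the chaperones and folding enzymes Pdia4, Hyou1, Hspa5 and Dnajb11 and the degradation genes Herpud1 and Syvn1. With no limit on the fold change, 9 were called, adding Hsp90b1, Calr and the disulfide isomerase P4hb, beside 3.43% of all genes called lower in this way.

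Herpud1 (chr8:94386438-94395377), which recruits the degradation complex at the ER membrane, had the largest fall of the 6 called members. It was at 1751, 1730.5, 1679 and 1693 in PBS, at 1525, 1382, 1422 and 1649 in NG-exo and at 1290.1, 1333, 1529 and 1473 in HG-exo. All PBS libraries lay above all others, while NG-exo and HG-exo overlapped. The log2 fold change of HG-exo against PBS was -0.29 ± 0.07 (SE, n = 4 and 4, adjusted p = 0.00340, limma), and that of NG-exo against PBS was -0.20 ± 0.07 (adjusted p = 0.0925).

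Hspa5 was at 29004, 28477, 29973 and 29218 in PBS, at 27071, 27949.7, 27239 and 25901 in NG-exo and at 25194, 26039, 25609.8 and 26557 in HG-exo. PBS again lay above every exosome library, and NG-exo and HG-exo overlapped. Against PBS, HG-exo was at -0.17 ± 0.03 on the log2 scale (adjusted p = 0.000169, limma) and NG-exo at -0.11 ± 0.03 (adjusted p = 0.0370), under the fold limit. Hyou1 was at 5644, 5009, 5232 and 5387 in PBS, at 4821, 4417, 4661 and 4932 in NG-exo and at 4669, 4723, 4594 and 4677 in HG-exo. It was called in both comparisons with PBS, at -0.19 ± 0.04 for HG-exo (adjusted p = 0.00468) and -0.18 ± 0.04 for NG-exo (adjusted p = 0.0143).

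Pdia4, a disulfide isomerase, was at 6141, 6404, 6071 and 6763 in PBS, at 6446, 6045, 5777 and 5905 in NG-exo and at 5443, 5336, 5658 and 5785 in HG-exo. HG-exo lay below every PBS library, and just 1 NG-exo library came under the highest HG-exo library (-0.19 ± 0.04 against PBS, adjusted p = 0.00334, limma). Syvn1 was at 1827, 2009, 1919.7 and 2031 in PBS, at 1825, 1804, 2062 and 1859 in NG-exo and at 1500.4, 1705, 1626 and 1899 in HG-exo. HG-exo replicate 4 lay among the PBS libraries (-0.21 ± 0.06, adjusted p = 0.0395, limma). Dnajb11, an HSP40-type partner of BiP, fell from 3721 ± 228 to 3316 ± 131 (SD; -0.17 ± 0.05, adjusted p = 0.0398). The calls of Syvn1 and of Dnajb11 were each lost without 6 of the 12 libraries in turn, with adjusted p up to 0.181 and 0.156. All of these losses came from leaving out a PBS or HG-exo library. The NG-exo libraries do not enter the means of this contrast, and leaving out any of them kept both calls.

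Of the 3 ER stress sensors and factors, none was called by limma in HG-exo against PBS. Xbp1 was at 6611, 6011, 5797 and 6243 in PBS, at 5743, 5741, 5694 and 5840.0 in NG-exo and at 6339.9, 5564, 5680.2 and 5672 in HG-exo, with overlap of HG-exo and PBS (-0.08 ± 0.04, adjusted p = 0.326, limma). Ern1 was at 5281, 5236, 5387 and 5296 in PBS, at 4888, 5339.6, 5033 and 5133 in NG-exo and at 4965, 4723, 4804 and 5274 in HG-exo (-0.10 ± 0.04, adjusted p = 0.184). Atf6 was at 7001, 6408, 6864 and 6886 in PBS, at 6395, 6868, 6808 and 6847 in NG-exo and at 6715, 6633, 6719.8 and 6725 in HG-exo (-0.02 ± 0.04, adjusted p = 0.869). Calr, just under the fold limit, was at 35975, 34264, 34538 and 37609 in PBS, 34199, 32313, 32779 and 33816 in NG-exo and 31794, 33160.1, 31673 and 31789 in HG-exo (-0.148 ± 0.03, adjusted p = 0.00197). Its groups did not overlap between HG-exo and PBS, as was the case for 11 of 24 ER members and 1 of 23 ATF4 members, beside 5.59% of all genes.

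The ER branch median in HG-exo against PBS was -0.13, with 21 of 24 members negative, against 0.0034 over all genes, and the ATF4 branch median was 0.0050, with 10 of 23 negative. The ER members that stayed nearest to PBS were Canx (0.02), Dnajc10 (0.01), Sel1l (0.00) and Edem1 (-0.01), the last 2 of ER-associated degradation. Within the 4 dates that the labels give to the exosome libraries, 15 of 24 ER members were lower in HG-exo than in PBS at every date, and 2 of 23 ATF4 members were. The share of all genes that were lower at every date was not computed, so these counts have no background beside them. The ER branch median within a date was -0.17 (replicate 1), -0.07 (replicate 2), -0.10 (replicate 3) and -0.12 (replicate 4). Of the 10 ER members with an ERSE or ERSE-II match, Hspa5, Dnajb11, Herpud1 and Syvn1 were called, and of the 10 with a promoter and no match, Pdia4 was. Hyou1, also called, had no promoter entry and is in neither set. The log2 fold changes ran from -0.29 to 0.02 with a match and from -0.19 to 0.01 without, and 4.84% of all genes were called. In the same comparison 5 of 10 macrophage markers were also called lower (Fcgr1, Itgam, Cd14, Csf1r and Adgre1, log2 fold changes from -0.60 to -0.21). None was called higher, and 4 had positive values, the largest that of Cd63 (0.14, adjusted p = 0.0307, limma), under the fold limit. The part of the macrophage markers in the result was not tested.

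**Figure D4:**
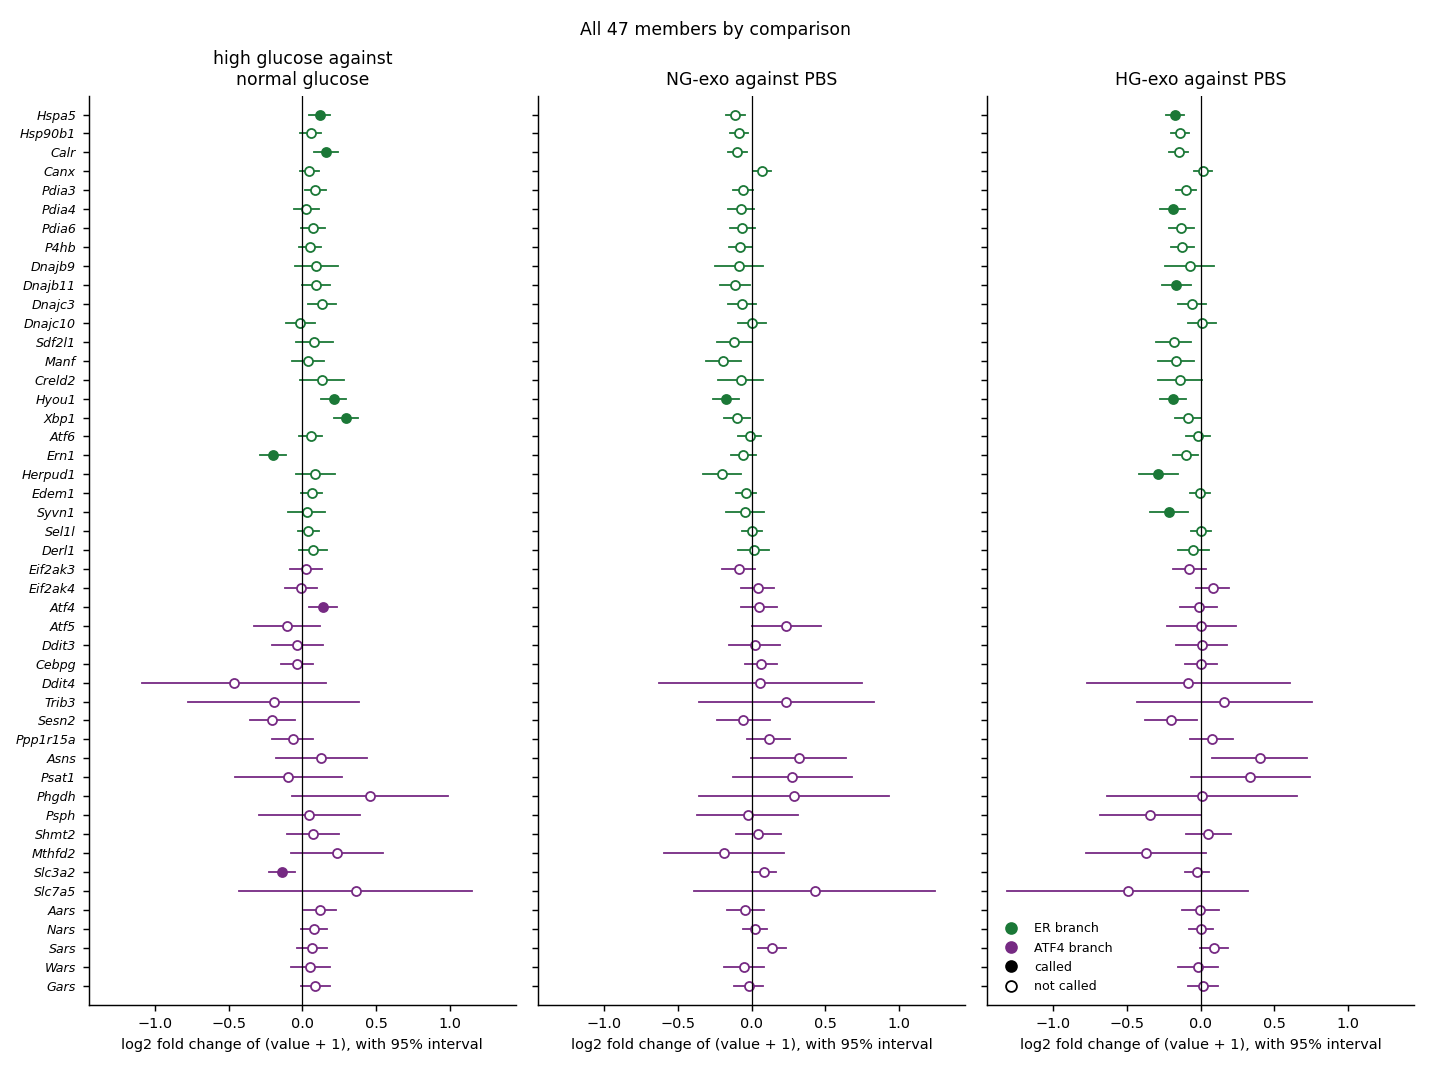
Log2 fold change of (normalized count + 1) with its 95% interval (horizontal) for all 47 measured members (vertical) in 3 comparisons, with filled points for called members. In HG-exo against PBS the 6 called members are all in the ER branch, at log2 fold changes from -0.29 to -0.17, and the widest intervals belong to low ATF4 branch genes such as Slc7a5 and Ddit4.

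NG-exo against PBS had 1 called member, Hyou1, which was lower. That is 2.13% of the members, against 2.11% of all genes called lower, and the call was lost without PBS replicate 1 or NG-exo replicate 2 (adjusted p up to 0.0946). The ER branch median was -0.07 with 20 of 24 members negative, and 5 ER members (Hspa5, Hsp90b1, Calr, Hyou1 and Herpud1) had every NG-exo library below every PBS library, beside 4.63% of all genes. The ATF4 branch median was 0.05 with 16 of 23 members positive, and it ran from 0.032 (without PBS replicate 3) to 0.080 (without PBS replicate 4) with a library left out. None of the 23 was called by limma, with 3 at an unadjusted p under 0.05 (against 13.5% of all genes). Macrophage markers called lower here were again Fcgr1, Itgam, Cd14, Csf1r and Adgre1. Of the 10 markers 4 had positive values, the largest that of Mrc1 (0.15, adjusted p = 0.121, limma), and none was called higher. The part of the macrophage markers in the result was not tested.

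The factors Atf4, Ddit3 and Atf5 overlapped between the exosome groups. Atf4 was at 2556, 2612, 2583 and 3014 in PBS, at 2963, 2749.7, 2696 and 2721 in NG-exo and at 2956, 2771, 2671 and 2292 in HG-exo. Ddit3 was at 828, 807, 649.7 and 902 in PBS, 778, 824, 785 and 826 in NG-exo and 756, 855, 787 and 783 in HG-exo. No group stood apart for either gene, and against PBS the HG-exo log2 fold change was -0.01 (95% interval -0.14 to 0.11) for Atf4 and 0.01 (-0.17 to 0.18) for Ddit3. Atf5 was at 365, 396, 326 and 373 in PBS, 495, 419.9, 371 and 437 in NG-exo and 391, 392, 316 and 367 in HG-exo. The NG-exo libraries had the highest mean of the 3 groups (0.23 ± 0.12 against PBS, adjusted p = 0.369, limma).

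The kinases also overlapped. Eif2ak3 was at 2496, 2257, 2513 and 2394 in PBS, 2247, 2187, 2220.1 and 2441 in NG-exo and 2348, 2332, 2099.9 and 2383 in HG-exo. Eif2ak4 was at 1860.4, 1984, 1975 and 2149 in PBS, 2038, 2068, 2123 and 1959.9 in NG-exo and 2109, 2075, 2211 and 2025 in HG-exo. Slc3a2 was at 4996, 5187, 4793 and 4913 in PBS, 5390.2, 5255, 5259.9 and 5196 in NG-exo and 4798, 4898, 4792 and 5028 in HG-exo. Every NG-exo library of Slc3a2 lay above both other groups, but neither difference was called (0.09 ± 0.04 against PBS, adjusted p = 0.330, and -0.11 ± 0.04 for HG-exo against NG-exo, adjusted p = 0.583, limma). Psph, phosphoserine phosphatase, was at 177 ± 18.2 in PBS, 175 ± 29.5 in NG-exo and 139 ± 6.43 in HG-exo (SD, n = 4 each), with HG-exo below every library of the other groups. It was not called in HG-exo against PBS (-0.34 ± 0.17, adjusted p = 0.299). Asns was at 165 ± 29.3, 205 ± 24.2 and 216 ± 14.9 (0.40 ± 0.16 for HG-exo against PBS, adjusted p = 0.164).

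Of 31 further ATF4 targets and amino acid stress genes, 1 rose and 2 fell in HG-exo against PBS, beside 4.84% of all genes called. The aminotransferase Gpt2 rose (424 to 580.1 normalized counts, log2 fold change 0.45 ± 0.10, adjusted p = 0.00337, limma), and Cebpb (-0.19 ± 0.05) and Rbpj (-0.16 ± 0.04) fell. Of 12 further translation control genes, Eif2ak2 alone was called, and it fell (-0.31 ± 0.05). In NG-exo against PBS, Rbpj and Eif2ak2 fell, each the only call of its list, beside 2.11% of all genes called lower. None of the 40 further ER folding genes, 27 ER degradation and stress regulators or 18 tRNA synthetases was called by limma in the exosome comparisons. At an unadjusted p under 0.05 there were 5, 5 and 2 of them in HG-exo against PBS, beside 16.9% of all genes at the same threshold.

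The branch level of each library was taken as the median, over the branch, of each member's log2 deviation from its mean in the same experiment. In the ER branch it was -0.04 to -0.01 in the normal glucose libraries and 0.01 to 0.08 in the high glucose libraries. In the exosome experiment it was 0.03 to 0.09 in PBS, -0.04 to 0.0015 in NG-exo and -0.07 to -0.02 in HG-exo. The ER branch thus stood apart between the glucose groups, and PBS stood above both exosome groups, which overlapped. In the ATF4 branch the ranges were -0.03 to 0.03 and -0.02 to 0.04 in normal and high glucose and -0.11 to 0.02, -0.01 to 0.10 and -0.02 to 0.02 in PBS, NG-exo and HG-exo, so that all groups of an experiment overlapped.

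**Figure D5:**
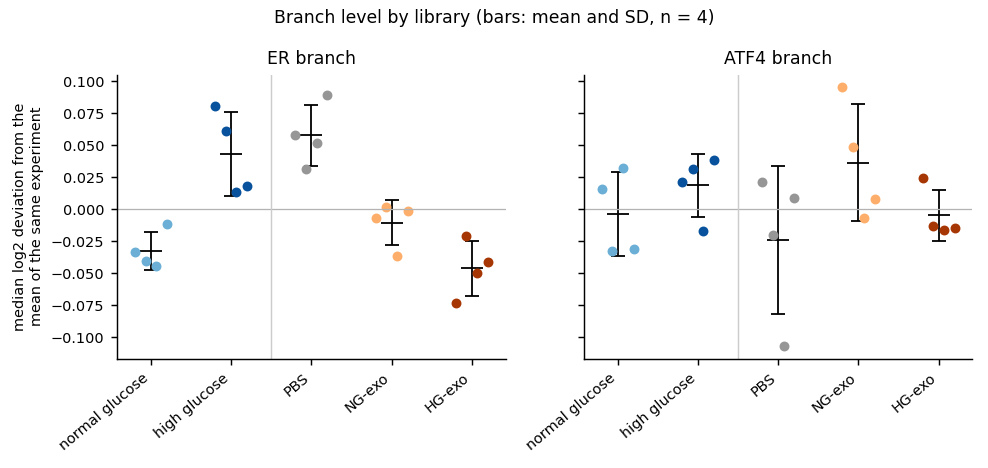
Median log2 deviation of the branch members from their mean in the same experiment (vertical) for each library (points), with the mean and SD of the 4 libraries of a group (bars). ER branch levels are 0.01 to 0.08 in high glucose and -0.04 to -0.01 in normal glucose, and 0.03 to 0.09 in PBS against -0.07 to -0.02 in HG-exo, while ATF4 branch levels overlap.

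The effect of high glucose on BMDM was set against that of exosomes made under high glucose by testing the difference itself, high minus normal glucose less HG-exo minus NG-exo, over all 20 libraries. Of 47 members, 4 were called, 8.51% against 4.74% of all genes (472 higher and 213 lower, or 322 and 290 under quantile normalization): Xbp1 (difference 0.28 ± 0.06 on the log2 scale, adjusted p = 0.00202, limma), Hyou1 (0.22 ± 0.06, adjusted p = 0.0196, lost without 4 of the 20 libraries in turn, up to 0.0577), Calr (0.21 ± 0.05, adjusted p = 0.0109) and Hspa5 (0.18 ± 0.04, adjusted p = 0.00979). All 4 were ER members that rose in high glucose, while their HG-exo values against NG-exo were 0.01, -0.01, -0.05 and -0.06. The Hyou1 call was kept without any single PBS library, a group whose mean does not enter this contrast. No ATF4 member was called in this test by limma, with 2 of 23 positive at an unadjusted p under 0.05 (8.70%, against 10.1% of all genes).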

How the data were processed

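Gene-level values of 20 total RNA libraries were deposited by the authors as 1 table of normalized signal: strand-specific featureCounts counts from STAR alignments (GRCm38 per the submitters' notes), divided by DESeq2 size factors. The annotation used for counting is not given in the sources used here. Whole reads were recovered by multiplying back by each library's step (100% of low values were whole within 0.1 of a step). Identifiers were named with GENCODE M21 (14421 of 14456 matched). Members and lists were chosen with earlier results of these data known. The main test was limma 3.58.1 (R 4.3.3) with a mean-variance trend, two-sided, on log2(value + 1), over genes whose mean reached 10 in the libraries fitted, with Benjamini-Hochberg adjustment. It was tested on simulated data. Exosome calls also required a log2 fold change of 0.15 or more in size, which was not required for glucose.

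Alternatives were edgeR 4.0.16 and DESeq2 1.42.0 on recovered reads, TMM factors, quantile normalization, no trend, other pseudocounts (0.5 and 5) and filters (none, and a mean of at least 50), the fold limit, a replicate block and leaving out each library. Values in every library were given for Xbp1, Atf6, Ern1, Eif2ak3, Eif2ak4, Atf4, Atf5, Ddit3 and Hspa5 and for up to 5 called members per direction, branch and comparison, by absolute log2 fold change. Of other pathway lists at most 3 called genes per direction, by smallest p, were named. Psph, Asns, Slc7a5, Sesn2, Phgdh and the members named as the ends of a range were chosen after their values were seen. Intervals and errors cover the spread between libraries. In every comparison the median SE of the ER branch was smaller than that over all genes tested. The shares of all genes are therefore not shares among genes measured as precisely. The numbers shared by exosome libraries stand for a date in the labels (12 same-date pairs, mean correlation of deviations 0.0113, none over 0.1); what the date marks is not given in the sources used here.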

Additional observations from a re-analysis of the deposited data

Results flagged for a closer look

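The difference between the glucose effect and the exosome effect was past the threshold of limma's test for 4 members: 0.18 for Hspa5, 0.21 for Calr, 0.22 for Hyou1 and 0.28 for Xbp1 on the log2 scale, each higher under high glucose than in the HG-exo against NG-exo contrast. In 85 groups of 4 values examined (the 15 genes given in every library and both branch levels), 9 held a library far from the other 3, where chance gives about 1 in 20. For Atf6 these were the lowest libraries of high glucose (6637 normalized counts), NG-exo (6395) and HG-exo (6633). For Calr they were the lowest normal glucose library (26682) and the highest HG-exo library (33160.1). The others were the highest HG-exo library of Xbp1 (6339.9), the lowest normal glucose library of Eif2ak3 (1993), the highest PBS library of Atf4 (3014) and the highest HG-exo library of the ATF4 branch level (0.025 on the log2 scale).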

How the results depend on the processing

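Alternative runs over the 18 calls of a member in a comparison came to 396 in all. Each of these kept the direction, and 337 kept the call. The runs refit the same libraries, some of them without a library outside the contrast, so a kept direction says little about other samples. Members called in high glucose against normal glucose (7) were 4 under quantile normalization, 1 without the trend, 4 with the fold limit, and 4 to 9 with a library left out (lowest without high glucose replicate 2). With the replicate block, where only numbers 1 and 6 occur in both groups, there was 1 (Xbp1); these numbers were not shown to pair the libraries (2 pairs, mean correlation 0.00907), and Xbp1 was also the call that remained without the trend. Quantile normalization turned the split of all genes called in that comparison from 1116 higher and 798 lower to 789 higher and 872 lower, and moved the branch medians there to 0.033 (ER) and 0.017 (ATF4). Genes called over the whole table fell from 1914 to 654 without the trend and 788 with the block. Leaving out a library moved the ATF4 median to 0.016 to 0.056 there, to -0.063 to -0.010 in HG-exo against NG-exo and to -0.043 to 0.017 in HG-exo against PBS (negative without PBS replicate 3 or HG-exo replicate 1), to -0.047 to 0.0010 in HG-exo against both controls and to 0.032 to 0.080 in NG-exo against PBS. HG-exo against PBS (6) had 4 members under quantile normalization (Syvn1 and Dnajb11 were lost) and 1 without the trend (Hspa5). It had 4 to 8 with a library left out and 7 with the replicate block. HG-exo against both controls (0) had 1 with DESeq2 and 0 to 1 with a library left out. NG-exo against PBS (1) had 2 under quantile normalization (Sars higher), 2 with DESeq2, 2 with no fold limit, 0 without the trend, and 0 to 2 with a library left out (0 without NG-exo replicate 2, 2 without PBS replicate 2 or NG-exo replicate 4). The difference test (4) had 2 under quantile normalization and 1 without the trend. The cause of these changes was not tested. Over the whole table, genes called without the trend were 295 against 698 (HG-exo against PBS), 95 against 432 (NG-exo against PBS) and 324 against 685 (difference). HG-exo against both controls had 29 genes called (10 higher and 19 lower), 47 with a pseudocount of 5, 19 (9 and 10) under quantile normalization, 1 without the trend, 136 with DESeq2 and 23 (11 and 12) with the block. With a library left out it had 1 (without HG-exo replicate 1) to 204 (without NG-exo replicate 3), over 1.5 times from 29 for every library but NG-exo replicate 4. HG-exo against NG-exo had 2, then 5 with a pseudocount of 5, a mean of at least 50 or TMM factors, 1 with edgeR or without the trend, 25 with DESeq2, 22 with the block and 1 to 7 with a library left out (7 without NG-exo replicate 1). The block changed no other count of members by over 1.5 times. Low counts limit Slc7a5, Ddit4, Trib3 and Phgdh.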
